A study of Mus musculus with 30 samples.

Results

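The breakdown of the branched-chain amino acids leucine, isoleucine and valine was followed through 10 genes in mouse quadriceps muscle: the transaminase Bcat2, the dehydrogenase genes Bckdha, Bckdhb and Dbt, their regulators Bckdk and Ppm1k, and the downstream enzymes Ivd, Mccc1, Pcca and Aldh6a1. The genes were chosen by name, and all 10 had an entry among the 16475 entries of the expression table that were tested. Total RNA from the quadriceps of male mice, of the strain the labels spell C56BL/6J, was hybridised to Affymetrix arrays, 1 mouse per array and 10 arrays in each of 3 groups. All mice went at 9 weeks of age onto a low fat run-in diet for 3 weeks, having had a standard growth diet for 3 weeks before it. The LF d0 group was killed at the end of the run-in, at 12 weeks of age. The others were assigned at random to 56 days of low fat diet (LF d56) or high fat diet (HF d56) and were killed at 20 weeks of age. Age and time on the low fat diet therefore cannot be told apart, and the muscle was taken whole, with any fat, vessel, blood or tendon it held.

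Skeletal muscle is a main site where branched-chain amino acids lose their amino group, which the mitochondrial transaminase Bcat2 moves to 2-oxoglutarate. The resulting branched-chain keto acids are oxidised by the branched-chain ketoacid dehydrogenase complex, made of the E1 subunits Bckdha and Bckdhb, the E2 core Dbt and the E3 subunit Dld. The kinase Bckdk switches this complex off by phosphorylating E1, and the phosphatase Ppm1k switches it on again. Beyond the complex, Ivd and the carboxylase subunit Mccc1 act on the leucine branch, Aldh6a1 on the valine branch, and the carboxylase subunit Pcca on the propionyl-CoA that valine and isoleucine give. Raised blood levels of these amino acids accompany obesity and insulin resistance.

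Markers of skeletal muscle fibres gave strong signal on all arrays, although they do not tell quadriceps from other muscles. The summed intensity of 8 such markers (Ckm, Acta1, Myh4, Myh1, Tnnt3, Pvalb, Mb and Actn3) ran from 142686 to 153845 over the 30 arrays. That of 8 slow fibre markers varied far more, from 373 on an HF d56 array to 8122 on an LF d56 array. Markers of other tissues varied more between mice. The neutrophil marker S100a8 exceeded an intensity of 100 on 17 arrays, of which 7 were LF d0, 4 LF d56 and 6 HF d56. Signal from the spike-in control RNAs dap and thr, which are added to every sample and do not come from the muscle, also divided the arrays. By the mean log2 ratio of 5′ to 3′ signal over 4 pairs of control probe sets, the widest gap (0.21, the next widest being 0.14) lay between a set of 9 arrays, 3 in each group, and a set of 21 arrays, 7 in each group. The labels do not describe these sets, and because they are balanced over the groups each result below could be read in both. Within groups, the correlation of log2 intensities between pairs of arrays was never below 0.986.

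RefSeq promoter windows (build GRCm38.p6) were found for 9 of the 10 genes, in 13 windows that cover the 250 bases before an annotated start. Sequences of 4 of them are shown because these genes recur in the results: Bckdha and Ivd moved together most closely from mouse to mouse, and Mccc1 and Ppm1k had the smallest unadjusted p-values for diet. Bckdha lies on the minus strand (chr7:25658762-25659011), Ivd on the plus strand (chr2:118861744-118861993), Ppm1k on the minus strand (chr6:57535488-57535737) and Mccc1 on the minus strand (chr3:36000679-36000928). Each is written 5′ to 3′ on the strand of its gene, and capitals mark CCAAT or its reverse complement ATTGG, the letters of the CCAAT box.
Bckdha: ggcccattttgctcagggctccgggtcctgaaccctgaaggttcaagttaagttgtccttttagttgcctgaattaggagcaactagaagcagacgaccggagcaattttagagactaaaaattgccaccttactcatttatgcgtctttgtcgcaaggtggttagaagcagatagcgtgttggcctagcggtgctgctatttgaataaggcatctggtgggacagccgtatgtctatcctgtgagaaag
Ivd: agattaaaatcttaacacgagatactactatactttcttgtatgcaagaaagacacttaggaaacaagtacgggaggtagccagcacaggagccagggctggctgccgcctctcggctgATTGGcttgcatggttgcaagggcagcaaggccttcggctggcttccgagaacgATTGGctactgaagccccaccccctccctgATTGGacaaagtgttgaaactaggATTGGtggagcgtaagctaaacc
Ppm1k: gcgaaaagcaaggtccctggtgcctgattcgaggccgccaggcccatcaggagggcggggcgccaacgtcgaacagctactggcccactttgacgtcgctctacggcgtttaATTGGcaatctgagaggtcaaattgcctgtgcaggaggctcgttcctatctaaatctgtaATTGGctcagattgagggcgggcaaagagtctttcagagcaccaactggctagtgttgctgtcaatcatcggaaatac
Mccc1: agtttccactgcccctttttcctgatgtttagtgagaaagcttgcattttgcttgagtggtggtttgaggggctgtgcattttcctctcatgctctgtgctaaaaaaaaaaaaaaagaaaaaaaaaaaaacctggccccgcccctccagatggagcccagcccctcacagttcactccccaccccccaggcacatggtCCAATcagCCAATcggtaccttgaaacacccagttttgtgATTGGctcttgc
The letters CCAAT occurred 4 times in the window of Ivd, 3 times in that of Mccc1, 2 times in that of Ppm1k and 0 times in that of Bckdha. In all, 7 of the 9 genes and 9 of the 13 windows held CCAAT on either strand, while 33.8% of all 32851 RefSeq windows of the same length did. The GC box letters GGGCGG were present in 4 of the 13 windows, against 32.7% of all windows. The letters AGGTCA, known from nuclear receptor sites, was present in 4 of the 13 windows, against 14.0% of all windows. These matches describe the letters of the windows only, and windows of the same gene are not independent.

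No gene of the set passed the test after high fat feeding. In HF d56 against LF d56 mice of the same age, 0 of the 10 genes had an adjusted p below 0.05 in limma (Benjamini-Hochberg over all 16475 entries), and 0.0243% of all entries (4, all higher) did. Without adjustment, 2 of the 10 genes (Mccc1 and Ppm1k) had p below 0.05, while 5.1% of all entries and 5.03% of the entries above the filter described next did. Of the 10 log2 differences, 8 lay below 0, with a median of -0.09. Among all entries 48.5% lay below 0, with a median of 0. Among the 6844 entries with an intensity above 20 on at least 5 arrays, a filter that all 10 genes pass, 55.0% did, with a median of -0.01. The intensities of the HF d56 and LF d56 groups overlapped for every one of the 10 genes, as they did for all but 0.0121% of entries. In whole muscle, fewer cells of a type and less RNA per cell cannot be told apart. Some marker lists also shifted with diet, with none of their genes past the test. The 8 adipocyte markers had a median log2 difference of 0.31, with 6 above 0 and 2 below, and 4 had unadjusted p below 0.05. Of these 4, Adipoq, Lep and Cidec lay above 0 and Cfd below, at -0.47. The 8 neutrophil and marrow markers had a median of 1.15, with 8 above 0. With a score of either list as a covariate, 0 of the 10 genes passed. The part of these markers was not tested further.

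**Figure D1:**
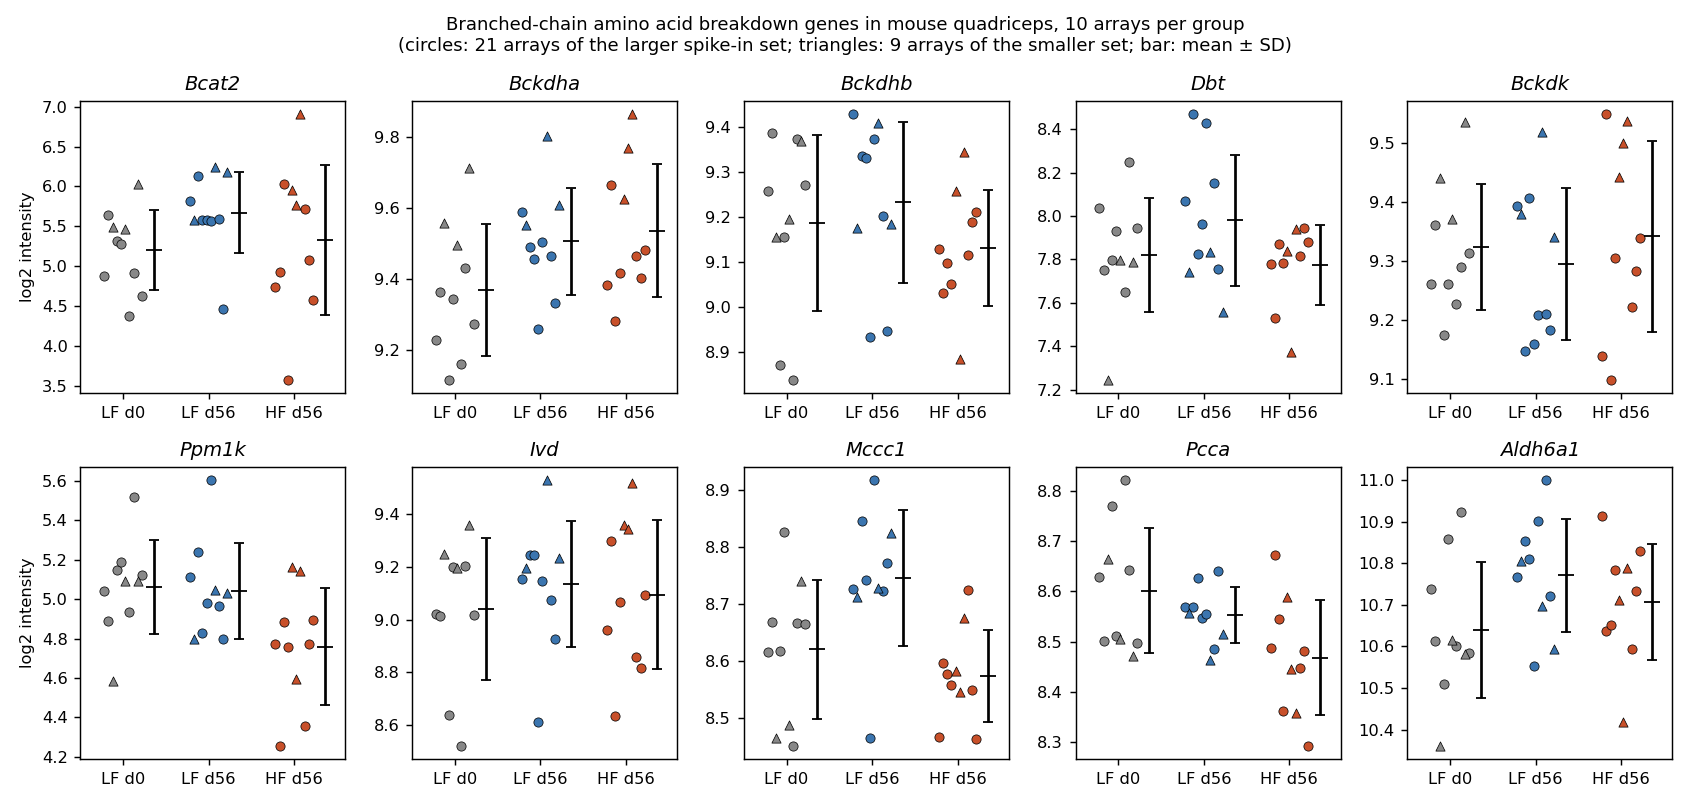
Log2 intensity (vertical axis) of each of the 10 genes in LF d0, LF d56 and HF d56 mice, 1 point per array, with circles for the 21 arrays and triangles for the 9 arrays of the spike-in sets, and the mean ± SD (10 arrays) as a bar beside each group. The vertical axes differ between genes, do not start at 0 and show no levels that can be compared between genes; the groups overlap in all 10 panels.

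The transaminase Bcat2 was the most variable of the genes. Its intensity had a lowest, median and highest value of 20.8, 39.25 and 65.6 in LF d0, of 22.1, 47.95 and 75.5 in LF d56, and of 11.9, 43.15 and 120.1 in HF d56. The HF d56 group thus held the lowest as well as the highest array of all 30, and all 3 ranges overlapped widely. The log2 difference of HF d56 from LF d56 was -0.35 ± 0.29 (SE; 95% interval -0.93 to 0.24; limma adjusted p = 0.998), and 5 of 10 HF d56 arrays lay below the LF d56 mean. Without HF d56 replicate 4, the lowest array, the difference was -0.15. The interval reaches from 0.525 to 1.18 as a fold, so changes within this range remain compatible with these arrays. Its signal lies close to background, with 9 of 10 HF d56 arrays above 20.

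The E1 subunit genes showed narrow ranges. Bckdha had a lowest, median and highest intensity of 555, 654.4 and 839.3 in LF d0, of 613, 722.55 and 892.4 in LF d56, and of 622.1, 711.05 and 932.4 in HF d56. Its diet difference was 0.03 ± 0.08 on the log2 scale (95% interval -0.13 to 0.19; limma adjusted p = 0.998), which as a fold spans 0.915 to 1.14. Bckdhb, the partner in the same E1 tetramer, ran from 458 to 669.6 in LF d0 (median 599.15), from 489.3 to 689.4 in LF d56 (617.1) and from 472.7 to 650.3 in HF d56 (557.7). Its diet difference was -0.10 ± 0.08 (95% interval -0.26 to 0.05), with 8 of 10 HF d56 arrays below the LF d56 mean. Neither gene passed the test for diet.

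Dbt, which carries the lipoyl groups of the E2 core, had a lowest, median and highest intensity of 151.8, 222.4 and 304.2 in LF d0, of 188.3, 238.65 and 354.4 in LF d56, and of 165.8, 227.45 and 246.4 in HF d56. The HF d56 arrays lacked the high values seen in the other groups, and 10 of 10 lay below the LF d56 mean, which itself lay above the LF d56 median. The log2 difference was -0.20 ± 0.11 (95% interval -0.43 to 0.02) and did not pass the test (limma p = 0.0719, adjusted p = 0.991). Within the 21 arrays it was -0.29, and within the 9 arrays 0.01. Without the arrays high in S100a8, which leaves 4 HF d56 and 6 LF d56 arrays, it was -0.05.

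The regulators of the complex were read as a pair. The kinase gene Bckdk ran from 577.9 to 741.9 in LF d0 (median 631.1), from 567.3 to 733.9 in LF d56 (620.05) and from 548.4 to 748.9 in HF d56 (640.25), and these ranges nearly coincided. Its diet difference was 0.05 ± 0.06 on the log2 scale (95% interval -0.08 to 0.17; limma adjusted p = 0.998). The phosphatase gene Ppm1k had a lowest, median and highest intensity of 24, 34.1 and 45.9 in LF d0, of 27.8, 32.15 and 48.7 in LF d56, and of 19.1, 27.3 and 35.9 in HF d56. The HF d56 group had the lowest median, but its upper arrays lay inside the range of both low fat groups.

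For Ppm1k the log2 difference of HF d56 from LF d56 was -0.28 ± 0.11 (95% interval -0.51 to -0.05), with 8 of 10 HF d56 arrays below the LF d56 mean. It did not pass the test (limma p = 0.0173, adjusted p = 0.859) and ranked number 330 of all entries by p. Within the 21 arrays the difference was -0.41 and within the 9 arrays it was 0.01, and without the arrays high in S100a8 it was -0.17. A test of the difference between these values gave 0.42 ± 0.24 (limma p = 0.0883, adjusted p = 1), and 0% of all entries passed that test. Ppm1k also lies near background, as 9 of 10 HF d56 arrays exceeded 20.

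Taken within each mouse, the log2 intensity of Bckdk minus that of Ppm1k, set to 0 at the LF d56 mean, was 0.01 ± 0.29 (SD, n = 10) in LF d0, 0.00 ± 0.30 in LF d56 and 0.33 ± 0.34 in HF d56. The highest HF d56 mouse stood at 1.04 and the lowest at -0.04, while LF d56 mice ran from -0.65 to 0.33. Of the HF d56 mice, 9 of 10 lay above the LF d56 mean, as did 6 of 10 LF d56 and 5 of 10 LF d0 mice. Of the diet differences behind this balance, that of Ppm1k, a gene near background, was the larger (-0.28, against 0.05 for Bckdk). Within the 21 arrays they were -0.41 for Ppm1k and 0.03 for Bckdk, and within the 9 arrays 0.01 and 0.08. The balance was formed after the values of both genes were known and is given with no test.

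Among the enzymes of the leucine branch, Ivd, which oxidises isovaleryl-CoA, ran from 367.5 to 656.4 in LF d0 (median 553.15), from 391.4 to 739.9 in LF d56 (578.35) and from 397.2 to 734.3 in HF d56 (541.45). Its diet difference was -0.04 ± 0.11 on the log2 scale (95% interval -0.27 to 0.19), and -0.17 without the arrays high in S100a8. Mccc1, the biotin-carrying subunit of methylcrotonyl-CoA carboxylase, had a lowest, median and highest intensity of 349.9, 399.25 and 453.8 in LF d0, of 353.4, 426.2 and 483.6 in LF d56, and of 352.8, 379.25 and 422.8 in HF d56. The LF d56 group had the highest median, and the HF d56 values lay inside the LF d56 range apart from a lowest array just under it.

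Mccc1 had the smallest p for diet of the 10 genes. The log2 difference of HF d56 from LF d56 was -0.17 ± 0.05 (95% interval -0.28 to -0.07, or 0.824 to 0.956 as a fold), and 10 of 10 HF d56 arrays lay below the LF d56 mean. It did not pass the test (limma p = 0.00251, adjusted p = 0.519), and its p ranked number 79 of all entries. The difference was -0.18 within the 21 arrays and -0.15 within the 9 arrays. Its partner subunit Mccc2, with which it forms the enzyme, differed by -0.01 ± 0.12 (95% interval -0.26 to 0.25).

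In the valine and isoleucine branches 0 of 2 genes passed for diet. Pcca, the biotin-carrying subunit of propionyl-CoA carboxylase, had a lowest, median and highest intensity of 355.1, 380.25 and 452.5 in LF d0, of 353, 376.4 and 399 in LF d56, and of 313.6, 353.3 and 408.2 in HF d56. The HF d56 group had the lowest median, and its highest array exceeded the highest LF d56 array. The diet difference was -0.08 ± 0.05 on the log2 scale (95% interval -0.19 to 0.02; limma adjusted p = 0.998). Its partner Pccb differed by -0.11 ± 0.11. Aldh6a1, which converts methylmalonate semialdehyde to propionyl-CoA, ran from 1316 to 1941.4 in LF d0 (median 1560.15), from 1502.5 to 2047.7 in LF d56 (1766.5) and from 1368.4 to 1929 in HF d56 (1688.9). Its diet difference was -0.06 ± 0.07 (95% interval -0.20 to 0.07). Over the 10 genes, the interval of the diet difference excluded a change of more than 0.51 in either direction on the log2 scale for all but Bcat2.

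**Figure D2:**
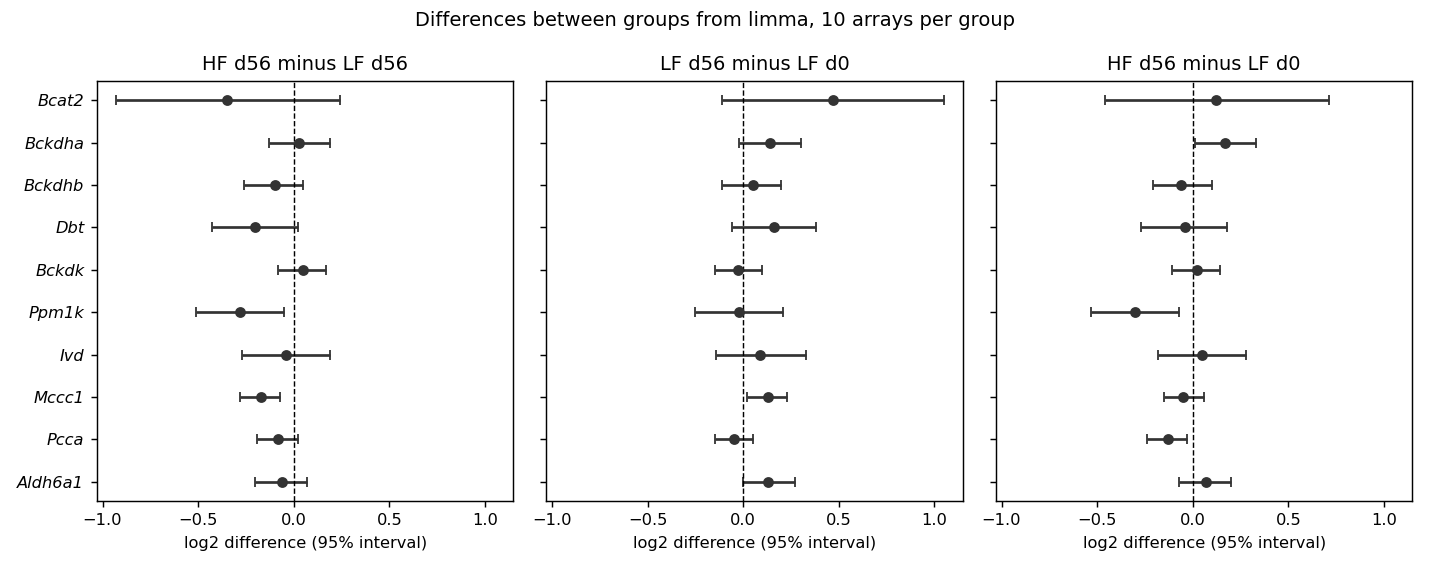
Log2 difference between group means (horizontal axis) for each of the 10 genes with its 95% interval from limma, in HF d56 against LF d56, LF d56 against LF d0 and HF d56 against LF d0. Intervals are widest for Bcat2; that of Mccc1 lies between -0.28 and -0.07 in the diet comparison, before adjustment over the 16475 entries.

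During the 56 days on the low fat diet 0 of the 10 genes passed the test. In LF d56 against LF d0, 0.85% of all entries passed in limma (140, of which 37, or 0.225%, were higher and 103 lower). Without adjustment 1 of the 10 genes (Mccc1) had p below 0.05, against 10.1% of all entries and 13.9% of those above the filter. The median log2 difference of the 10 genes was 0.11, and 3 lay below 0. Over all entries the median was 0 and 49.6% lay below 0, as did 47.9% of those above the filter. Mccc1 differed by 0.13 ± 0.05 (limma p = 0.023, adjusted p = 0.383), with 9 of 10 LF d56 arrays above the LF d0 mean. The largest point estimate was that of Bcat2 at 0.47 ± 0.29 (95% interval -0.11 to 1.05; adjusted p = 0.612), also with 9 of 10 arrays above.

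Of the dehydrogenase genes, Bckdha differed over time by 0.14 ± 0.08, Dbt by 0.16 ± 0.11 and Bckdhb by 0.05 ± 0.08 on the log2 scale. The regulators stood near 0, with -0.03 ± 0.06 for Bckdk and -0.02 ± 0.11 for Ppm1k. Downstream, Ivd differed by 0.09 ± 0.11, Aldh6a1 by 0.13 ± 0.07 (limma adjusted p = 0.512) and Pcca by -0.05 ± 0.05. Several marker lists differed between the same groups, where 0.625% of all entries were called lower. The 8 slow fibre and the 8 adipocyte markers had median log2 differences of 0.66 and 0.45, all above 0, with none past the test. Of 7 tendon, bone and cartilage markers 6 fell (Tnmd, Col2a1, Ibsp, Fmod, Thbs4 and Col11a1, by log2 differences of -2.08 to -0.46), with summed intensities of 2992 to 4432 in LF d0 and 2210 to 2743 in LF d56. Of 8 endothelial markers 1 was called lower (Cldn5, log2 difference -0.79 ± 0.17, limma adjusted p = 0.013), with sums of 867 to 1372 in LF d0 and 770 to 1144 in LF d56. All 8 lay below 0, with a median log2 difference of -0.24. Unadjusted limma p was below 0.05 for 6 of them, against 10.1% of all entries. The 8 neutrophil and marrow markers had a median log2 difference of -2.06, with none past the test and sums of 40 to 10318 in LF d0 and 38 to 2613 in LF d56. Without the arrays high in S100a8, which leaves 3 LF d0 and 6 LF d56 arrays, the median difference of the 10 genes was 0, and the values of Dbt and Aldh6a1 turned to -0.14 and -0.12. With a slow fibre, an adipocyte or a neutrophil and marrow score as a covariate, 0 of the 10 genes passed. Beyond these scores, the part of the markers in the differences was not tested.

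In HF d56 against LF d0, where diet and age differ together, 0 of the 10 genes passed, against 1.59% of all entries (262, of which 129 were higher and 133 lower). This comparison shares its arrays with the other comparisons, so its values are not separate evidence. Unadjusted p was below 0.05 for 3 of the 10 genes, for 11.0% of all entries and for 15.9% of those above the filter. Of the 10 differences 5 lay below 0, against 48.9% of all entries and 52.6% of those above the filter. Ppm1k differed by -0.30 ± 0.11 (limma p = 0.0112, adjusted p = 0.229), Pcca by -0.13 ± 0.05 (adjusted p = 0.245) and Bckdha by 0.17 ± 0.08 (adjusted p = 0.408). The difference of Ppm1k, a gene near background, was -0.45 within the 21 arrays and 0.05 within the 9 arrays. That of Pcca was -0.15 and -0.08, and that of Bckdha 0.17 and 0.17. For Bckdha and Pcca 9 of 10 HF d56 arrays lay on the stated side of the LF d0 mean, and for Ppm1k 8 of 10. Mccc1, set beside its other values of -0.17 for diet and 0.13 for time, differed by -0.05 ± 0.05. The other 6 genes lay between -0.06 and 0.12. Of 8 adipocyte markers, 4 (Adipoq, Lep, Retn and Cidec) were called higher in the same comparison. Among all entries 0.783% were called higher and 0.807% lower. Of the 8 adipocyte markers 6 lay above 0 and 2 below, Cfd at -0.45 and Pck1 at -0.10. The summed intensity of the 8 ran from 6725 to 9009 in LF d0 and from 7031 to 11796 in HF d56. Of the 7 tendon, bone and cartilage markers 3 fell there (Tnmd, Fmod and Thbs4; list median -0.60, 7 of 7 below 0), with sums of 1924 to 3218 in HF d56. Of the 8 endothelial markers 1 was called lower, Cldn5 (-0.71 ± 0.17, limma adjusted p = 0.0207), with sums of 790 to 1128 in HF d56. The median of that list was -0.17, with 7 markers below 0 and 1 above. The part of these markers in the differences of the 10 genes was not tested beyond the adipocyte score. With that score as a covariate, 0 of the 10 genes passed as well.

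More of these genes passed between the spike-in sets than between the groups. Between the 9 and the 21 arrays, with group in the fit, 5 of the 10 genes passed the test, against 23.1% of all entries (3811); 4 of the 10 were higher in the 9 arrays, as were 10.8% of all entries. Bcat2 was higher in the 9 arrays by 0.80 ± 0.21 on the log2 scale (limma adjusted p = 0.0059), Ivd by 0.34 ± 0.08 (adjusted p = 0.00192), Bckdha by 0.28 ± 0.05 (adjusted p = 4.95e-05) and Bckdk by 0.19 ± 0.04 (adjusted p = 0.00158). For each of these 4 genes, 9 of the 9 arrays lay above the mean of the 21, although the ranges overlapped. Dbt was lower by 0.25 ± 0.09 (log2 difference -0.25, adjusted p = 0.0304), with 1 of 9 arrays above that mean. Aldh6a1 at -0.12 ± 0.06 (adjusted p = 0.116), Bckdhb at 0.05, Pcca at -0.05, Ppm1k at -0.01 and Mccc1 at -0.01 did not pass.

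Because each group holds 3 of the 9 arrays, adding the set to the fit left every difference between groups as it was and narrowed some errors. The error of the diet difference became 0.24 for Bcat2 and 0.05 for Bckdha, and 0 of the 10 genes passed in any comparison, when 6, 214 and 384 entries did for diet, for time and for HF d56 against LF d0. Within sets, the diet difference of Bcat2 was -0.58 in the 21 arrays and 0.21 in the 9 arrays, that of Ivd -0.10 and 0.09, and that of Bckdha 0.00 and 0.10. For Bckdhb these values were -0.10 and -0.09, for Pcca -0.10 and -0.05, for Aldh6a1 -0.07 and -0.06 and for Bckdk 0.03 and 0.08. No gene of the 10 passed a test of whether the difference depended on the set. That test gave adjusted p of 1 for diet for all 10 genes, and Ppm1k in HF d56 against LF d0 had the smallest unadjusted p (0.0438 in limma).

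**Figure D3:**
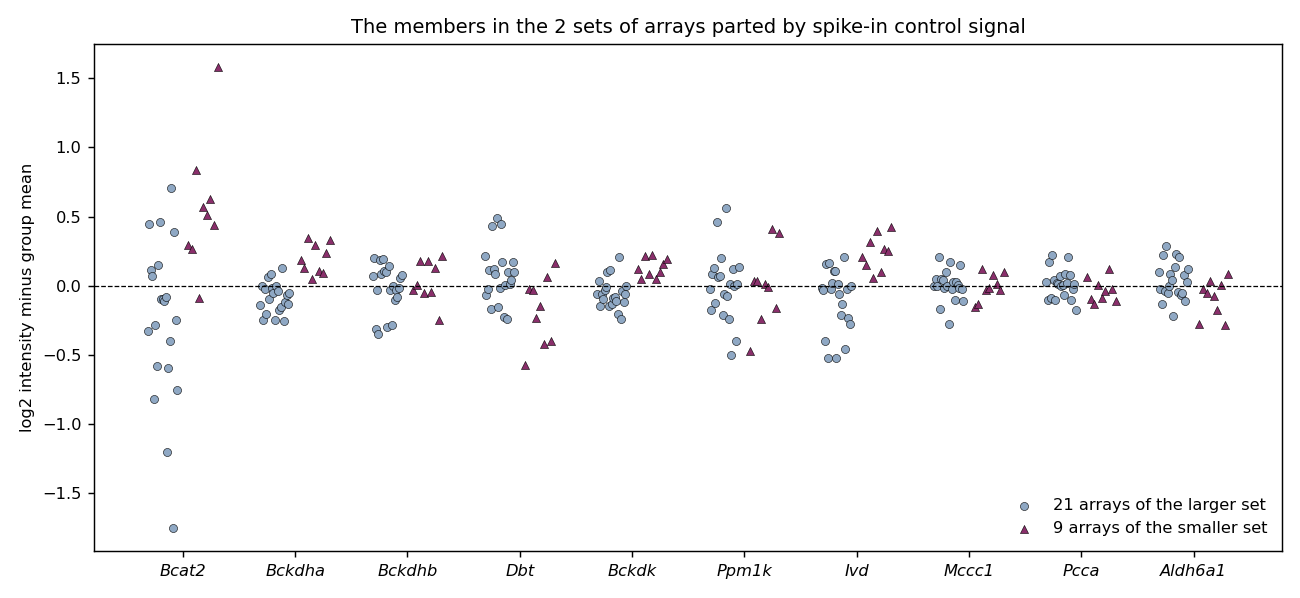
Log2 intensity minus the mean of the array's own group (vertical axis) for each of the 10 genes, with circles for the 21 arrays and triangles for the 9 arrays of the spike-in sets. Triangles lie higher for Bcat2, Bckdha, Bckdk and Ivd and lower for Dbt, by 0.80, 0.28, 0.19, 0.34 and -0.25 on average.

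To see which of the genes varied together from mouse to mouse, all 45 pairs were correlated over the 21 arrays after each group's mean was removed, so that neither the groups nor the sets enter. Pearson's r ran from -0.51 to 0.86 with a median of 0.29, and 31 of 45 were above 0. Over all 23416746 pairs of the 6844 entries above the filter, the median r was 0.01 and 51.2% were above 0. After Benjamini-Hochberg adjustment over the 45 pairs, 6 pairs passed a 2-sided permutation test within groups with 100000 resamples, and all 6 were positive. By Spearman's rho 4 pairs passed. The share of all pairs of entries that would pass was not computed.

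The closest pair was Bckdha and Ivd, with r = 0.86 (permutation p = 1e-05, the smallest these resamples can give; adjusted p = 0.00045) and rho = 0.82 (permutation p = 4e-05, adjusted p = 0.0018). Without the 2 arrays farthest from the median of Bckdha, r was 0.82. Only 0.032% of all pairs of entries reached this r. The next was Dbt with Ppm1k, the E2 core and the phosphatase, at r = 0.80 (permutation p = 4e-05, adjusted p = 0.0009) and rho = 0.77 (permutation p = 0.00011, adjusted p = 0.00247). Without the 2 farthest arrays r was 0.75, and 0.133% of all pairs of entries reached 0.80. Bckdha also varied with the kinase gene Bckdk, at r = 0.73 (permutation p = 0.00032, adjusted p = 0.0048), rho = 0.64 (permutation p = 0.0024, adjusted p = 0.036) and 0.57 without 2 arrays.

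Bckdha and Bckdhb, the subunits of the E1 component, gave r = 0.66 (permutation p = 0.00123, adjusted p = 0.0138), rho = 0.64 (permutation p = 0.00373, adjusted p = 0.042) and 0.81 without 2 arrays. For Bckdhb and Ivd, r was 0.68 (permutation p = 0.00239, adjusted p = 0.0181) and rho was 0.52 (permutation p = 0.0198, adjusted p = 0.0894), with 0.46 without 2 arrays. For Bckdk and Ivd, r was 0.62 (permutation p = 0.00241, adjusted p = 0.0181) and rho was 0.61 (permutation p = 0.00588, adjusted p = 0.0529), with 0.47 without 2 arrays. These last pairs passed by r and not by rho. Of all pairs of entries, 0.496% reached the r of Bckdha and Bckdk and 0.951% that of Bckdhb and Ivd. The r of Bckdha and Bckdhb was reached by 1.18%, and that of Bckdk and Ivd by 1.89%. The lowest value was that of Bckdhb and Pcca, at r = -0.51 (permutation p = 0.0175, adjusted p = 0.085), and -0.14 without 2 arrays.

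The values on 1 array share its RNA extract and hybridisation. With the spike-in index removed, r was 0.86 for Bckdha and Ivd and 0.79 for Dbt and Ppm1k. With a score of 14 mitochondrial genes removed the values were 0.80 and 0.82, and with the neutrophil and marrow score removed 0.86 and 0.72. With the mitochondrial score removed, r was 0.64 for Bckdha and Bckdk and 0.66 for Bckdhb and Ivd. It was 0.65 for Bckdha and Bckdhb, and 0.50 for Bckdk and Ivd. These adjustments were added after the values were seen. In the 9 arrays Bckdha and Ivd had r = 0.89. Dbt and Ppm1k had r = 0.88 there, but -0.15 without 2 arrays. In these 9 arrays 0 of 45 pairs passed in an exact permutation test whose smallest p is 0.00463 before adjustment.

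**Figure D4:**
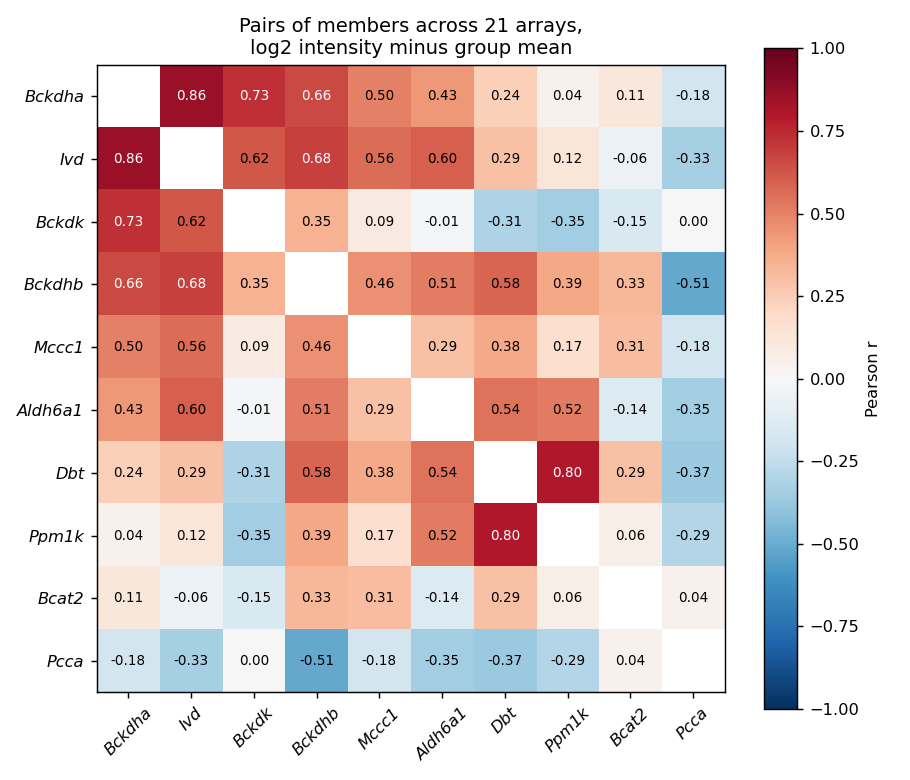
Pearson's r (colour scale from -1 to 1, value printed in each square) for all 45 pairs of the 10 genes over the 21 arrays of the larger spike-in set, each value taken as log2 intensity minus its group mean. Values among Bckdha, Ivd, Bckdk and Bckdhb run from 0.35 to 0.86, Dbt and Ppm1k stand at 0.80 and reach 0.54 and 0.52 with Aldh6a1, and Pcca has values from -0.51 to 0.04 with the others.

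In the rest of the pathway no gene passed for diet either, where 0.0243% of all entries did. A count of 0 in lists of this size therefore lies near the share of all entries. Of 15 other breakdown enzymes, all measured, 0 passed for diet, with a median log2 difference of -0.01 and a range of -0.11 to 0.09. The shared E3 subunit Dld differed by 0.00 ± 0.05. The cytosolic transaminase Bcat1 stayed under an intensity of 20 on all arrays (3.6 to 4.4), so its difference of -0.09 ± 0.04 (limma p = 0.0487, adjusted p = 0.974) lies within background. Of 9 genes that supply biotin, cobalamin or lipoate to these enzymes, 0 passed. Lias, the lipoate synthase, had the smallest p for diet of the pathway lists. Its intensity ran from 633.2 to 737.7 in LF d0 (median 682.4), from 623.9 to 737 in LF d56 (692.8) and from 548.3 to 681.3 in HF d56 (637.7). The log2 difference for diet was -0.12 ± 0.04 (limma p = 0.00568, adjusted p = 0.639), with 10 of 10 HF d56 arrays below the LF d56 mean, -0.10 within the 21 arrays and -0.17 within the 9.

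Transport and regulation gave similar results. Of 6 transport genes 0 passed for diet, and the mitochondrial branched-chain amino acid carrier Slc25a44 differed by -0.12 ± 0.11. Of 4 genes listed with the regulation of the pathway, 0 passed. Acly, a lipogenic enzyme that the kinase and the phosphatase of the complex also act on, had a log2 difference of -0.31 ± 0.13 (limma p = 0.0243, adjusted p = 0.941). Its LF d56 arrays ran from 70.5 to 220 (median 85) and its HF d56 arrays from 60.9 to 90.3 (77.45), so the LF d56 mean was raised by its top array. Klf15, a transcription factor known to drive these enzymes in muscle, differed by 0.15 ± 0.12 for diet and by 0.25 ± 0.12 between HF d56 and LF d0 (limma adjusted p = 0.455). The 14 mitochondrial content genes had a median diet difference of 0 and a range of -0.05 to 0.04.

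Of the 15 other breakdown enzymes 0 passed over time and 1 passed in HF d56 against LF d0. Acat1, the mitochondrial thiolase that splits the last intermediate of isoleucine and also acts in ketone body use, had a lowest, median and highest intensity of 1260.4, 1363.2 and 1537.2 in LF d0, of 1410.8, 1515.85 and 1658.5 in LF d56, and of 1346.5, 1611.35 and 1859.1 in HF d56. The order of the medians was LF d0, LF d56, HF d56, and the ranges overlapped. Acat1 rose by 0.25 ± 0.05 on the log2 scale in HF d56 against LF d0 (limma adjusted p = 0.00494; 1 of 15 enzymes, against 0.783% of all entries called higher), in 9 of 10 arrays. It differed by 0.17 ± 0.05 over time (adjusted p = 0.143) and by 0.09 ± 0.05 for diet (adjusted p = 0.998). In the 21 arrays alone the combined difference was 0.24 (adjusted p = 0.0546), with an adipocyte score as a covariate 0.27 (adjusted p = 0.0518), and without the arrays high in S100a8 0.15 (adjusted p = 0.755), while over all its alternatives the adjusted p ran down to 0.000511.

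Among the pathway genes with the smallest p over time, the amino acid exchanger subunits Slc3a2 and Slc7a8 differed by 0.14 ± 0.05 (limma adjusted p = 0.264) and 0.24 ± 0.09 (adjusted p = 0.308; under an intensity of 20 on every array, 7.4 to 14.1), and the epimerase Mcee of the propionate route by -0.13 ± 0.05 (adjusted p = 0.385). In HF d56 against LF d0, Slc3a2 differed by 0.14 ± 0.05 (adjusted p = 0.203), the neutral amino acid transporter Slc43a2 by 0.20 ± 0.07 (adjusted p = 0.21; 4.8 to 7.6, under 20 on every array) and Lias by -0.10 ± 0.04 (adjusted p = 0.304). None of these passed. Of 12 measured genes of the related pyruvate and 2-oxoglutarate dehydrogenase complexes, Pdp2, a pyruvate dehydrogenase phosphatase, was called lower in HF d56 than in LF d0 (log2 difference -0.37 ± 0.08, adjusted p = 0.00842), but its signal was under 20 on every array and the value has no firm scale.

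**Figure D5:**
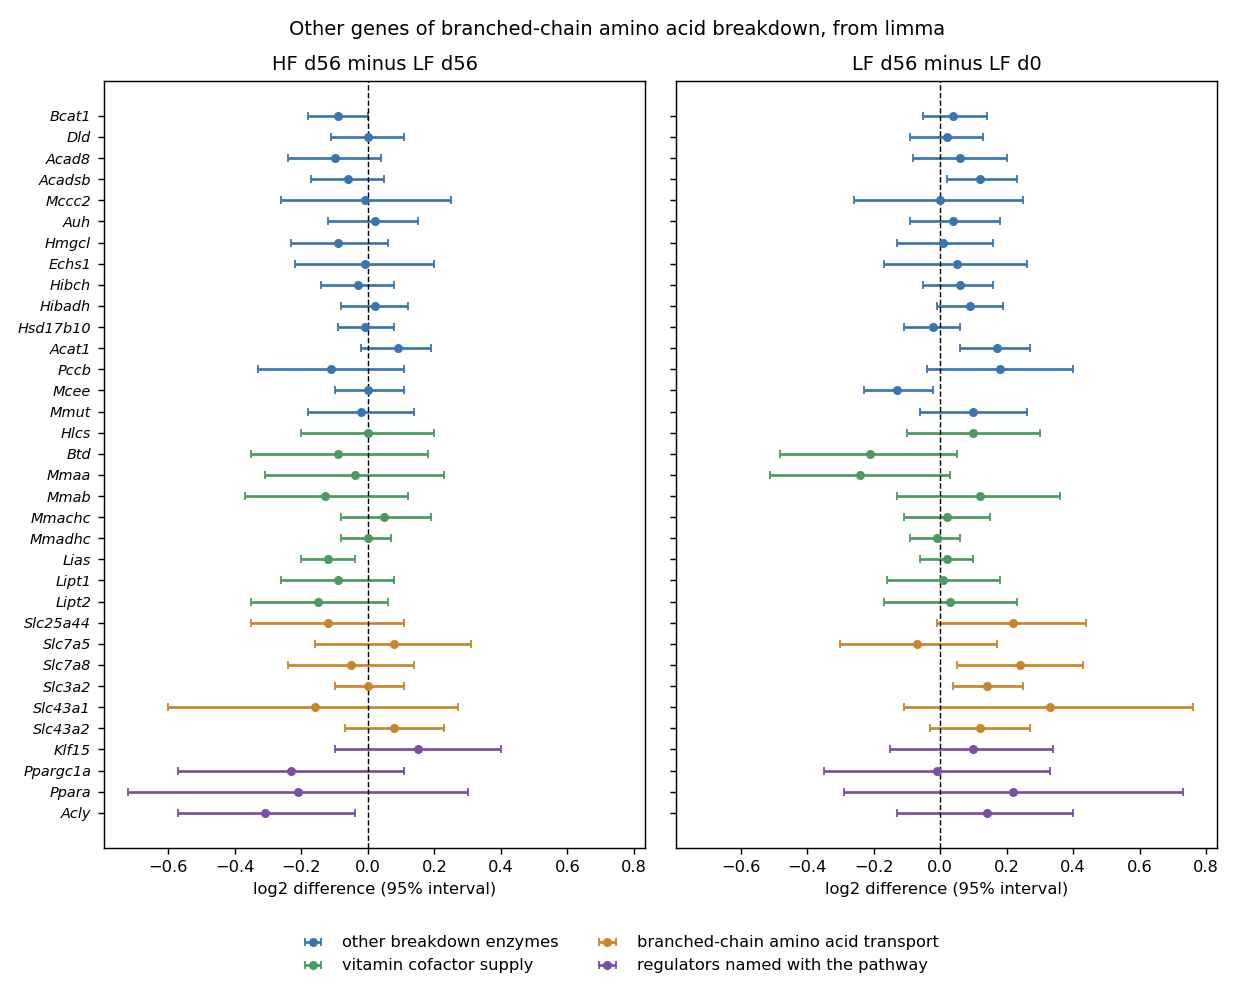
Log2 difference between group means (horizontal axis) with its 95% interval from limma for the other genes of branched-chain amino acid breakdown, coloured by list, in HF d56 against LF d56 (left) and LF d56 against LF d0 (right). No gene passed the test in either comparison after adjustment; the point for Lias is -0.12 on the left and that for Acat1 is 0.17 on the right.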

How the data were processed

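RNA of 30 quadriceps samples, 10 mice in each of 3 groups, was measured on Affymetrix arrays. The authors deposited 1 linear intensity per gene and array, made with GCRMA per the submitters' processing notes, which give no version. The genome build of the probes is not given in the sources used here. Of 16539 entries, 64 control entries were left out; the log2 of the intensity was taken with a pseudocount of 0. Array medians lay between 8.9 and 9.4, so no further scaling was applied. For arrays, the number of mice and the signal over background limit the precision.

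A limma model (version 3.58.1, R 4.3.3) was fitted to all 30 arrays at once (lmFit, then eBayes, 27 residual degrees of freedom). It gave two-sided p-values with Benjamini-Hochberg adjustment over 16475 entries and a threshold of 0.05. The procedure was tested on simulated data with noise drawn separately for each entry and array, so effects shared by an array were not covered. Pair correlations and promoter matches were computed in Python 3.11.15 with numpy 2.4.6 and scipy 1.17.1. Groups came from the labels, which give each mouse its own number, so replicates were taken as separate animals and not paired.

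The 10 genes and all gene lists, as well as the rule for the spike-in sets, were chosen with earlier results of these data known. Named are all 10 genes, Mccc2, Pccb, Dld, Bcat1, Slc25a44 and Klf15, every listed gene past the threshold, and the 4 pathway genes of smallest p in each comparison. The windows named in the text are of RefSeq's GRCm38.p6. Alternatives changed the moderation, weights, normalization, filter, pseudocount, blocks, covariates, arrays and threshold.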

Additional observations from a re-analysis of the deposited data

Results flagged for a closer look

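Of 30 sets of 10 arrays (10 genes in 3 groups), 2 held an array far from the others by Dixon's test, which flags about 1 set in 20 by chance. In LF d56, replicate 9 had a log2 intensity of 4.47 for Bcat2, with the nearest array at 5.56 (gap over range 0.619, critical value 0.466). In the same group, replicate 5 stood at 8.47 for Mccc1, with the nearest array at 8.71 (0.546). Both arrays belong to the set of 21.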

How the results depend on the processing

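In limma, 0 of the 10 genes passed in each comparison under all 17 alternatives and every fit without 1 array. Of 510 gene values under alternatives 495 were counted as keeping their direction and 15 reversed. Without 1 array 594 of 600 were counted as keeping it and 6 reversed. Values that became 0 were counted as kept. The threshold, the moderation, the filter, the fit of only the groups compared and the balanced blocks cannot change a difference. Part of the 495 therefore kept their direction by design. The smallest adjusted p under an alternative was 0.0872 (Ppm1k, HF d56 against LF d0). For diet, without arrays high in S100a8, Bckdha became -0.10, Bckdk -0.04 and Aldh6a1 0.01, while Dbt (-0.05), Ppm1k (-0.17) and Ivd (-0.17) moved over 1.5 times with their sign kept; without 1 array, Bcat2 ran from -0.52 to -0.15, Ivd reached 0.01 (HF d56 replicate 3) and Bckdha -0.01 (HF d56 replicate 7). For time, without arrays high in S100a8, Bckdhb became -0.01, Dbt -0.14, Bckdk 0.06, Aldh6a1 -0.12 and the median of the genes 0; without 1 array Ppm1k ran from -0.08 to 0.03, reaching 0.03 (LF d0 replicate 8), 0.01 (LF d56 replicate 2) and 0.01 (LF d56 replicate 9). For HF d56 against LF d0, Bckdk and Ivd became -0.03 and -0.03 with the adipocyte score, Bcat2, Bckdk and Ivd -0.03, -0.02 and -0.02 with the mitochondrial score, Ivd -0.17 and Aldh6a1 -0.11 without arrays high in S100a8, and Bcat2 -0.06 in the 21 arrays (added after seeing the data) and, without 1 array, -0.05 (HF d56 replicate 7) to 0.32. The cause was not tested.

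Entries called for diet (4 in the main result) numbered 0 with only the groups compared, without arrays high in S100a8, or in the 21 arrays, where fewer samples enter; 1 with the replicate block; 7 with a pseudocount of 16; 8 with trend and robust moderation, the filter on low values, or the spike-in index; 12 with the slow fibre score; 15 with the mitochondrial score or a threshold of 0.10; and 2 to 15 without 1 array (15, 10, 11 and 8 without HF d56 replicates 3, 5, 9 and 7, and 2 without any one of HF d56 replicates 2, 4, 6 and 8 and LF d56 replicates 1, 2, 3, 5, 6, 7, 9 and 10). For time (140) they numbered 214 with the set as a block, 85 with the neutrophil and marrow score, 13 without arrays high in S100a8, 47 in the 21 arrays, and 102 to 155 without 1 array. For HF d56 against LF d0 (262) they numbered 89 with the adipocyte score, 6 without arrays high in S100a8, 134 in the 21 arrays, and 214 to 271 without 1 array. Pdp2 was no longer called with the adipocyte score (-0.28), without arrays high in S100a8 (-0.42) or in the 21 arrays (-0.33), and does not pass the filter on low values. Replicate numbers did not pair the mice: same-number correlations ran from -0.40 to 0.40, and at most 2 of 10 arrays correlated best with their own number. With the replicate block the Mccc1 diet difference had an adjusted p of 0.764. Signal near background limits Bcat2 and Ppm1k.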
